A study of Mus musculus with 27 samples.

Results

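The 24 genes described here were far higher in limb bud cells made from mouse ES cells than in any of 7 groups of embryonic tissue. They were chosen from 23279 listed genes by their group means in CPM, which sum to 1000000 in every library. Both ES-derived means had to reach 5 CPM, which 10684 genes did. The lower of these means had to be at least 8 times the highest embryonic group mean plus 0.1 CPM. Symbols that begin with Col, Hox or Pcdh were not admitted, and 0 genes were lost to that condition alone. The difference between ES-derived and embryonic levels was thus used to choose the genes, and it is given below as a description without a test.

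The 26 libraries used are bulk polyA RNA-seq. ES–FLB and ES–HLB are day 9 forelimb and hindlimb organoids of the EB5 Hand2::GFP +/- line, from which GFP-positive mesenchyme was trypsinized and sorted, with 96 aggregates per experiment according to the methods. All ES cultures received BMP4 and Matrigel, and later hydrocortisone, the BMP inhibitor LDN193189 and Wnt3. Retinoic acid was given for ES–FLB, and an antagonist of it for ES–HLB. The embryonic groups are forelimb buds (FLB) and hindlimb buds (HLB) labelled E10.0 (early) and E10.5, and branchial arch (BA), cardiac tissue (Ca) and tail bud (TB) at E10.5, all of Slc:ICR mice and amputated from 3 embryos. Each group has 3 libraries, except that E10.5 HLB has 2 here because replicate 2, with many genes at 0, was left out by the rule. Cell line and strain, culture, and dissociation with sorting all differ between ES-derived and embryonic samples and cannot be told apart. The labels do not say that replicates came from separate cultures or animals, so p-values measure the spread between these samples, which may be technical.

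Depth was 6569901 to 7879906 reads in the ES-derived libraries and 5543752 to 22142168 in the embryonic ones, with the early limb buds deepest, so that 3 reads were worth 0.135 to 0.541 CPM. Summed limb mesenchyme markers were at 2880 to 3060 CPM in the ES-derived libraries and 2170 to 3110 in the limb buds. Blood and macrophage markers summed to 11.5 to 186 CPM in the ES-derived libraries and to at least 2130 in every embryonic library. In bulk RNA, fewer cells of a type and less RNA per cell cannot be told apart.

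The genes fall into a few roles. Egr1 and Egr2 are zinc-finger factors of the immediate early response, which is switched on within minutes of growth signals, stress or tissue handling. Lum, Aspn and Nepn encode small leucine-rich proteoglycans, secreted proteins that bind collagen and growth factors, and Lum and Aspn mark maturing connective tissue. Eda2r and Ptprv are known targets of p53, and Thy1 is a surface protein of mesenchymal stromal cells, neurons and T cells. Others encode a transcription factor of stromal and muscle maturation (Nfix), a netrin receptor (Unc5d), epithelial proteins (Dsc3, Krt6a), peptide hormones, receptors and transporters (Trh, Scg2, Npy1r, Slc15a2, Slc5a7), and proteins of ES cells or meiosis (Dppa5a, Hfm1).

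**Figure D1:**
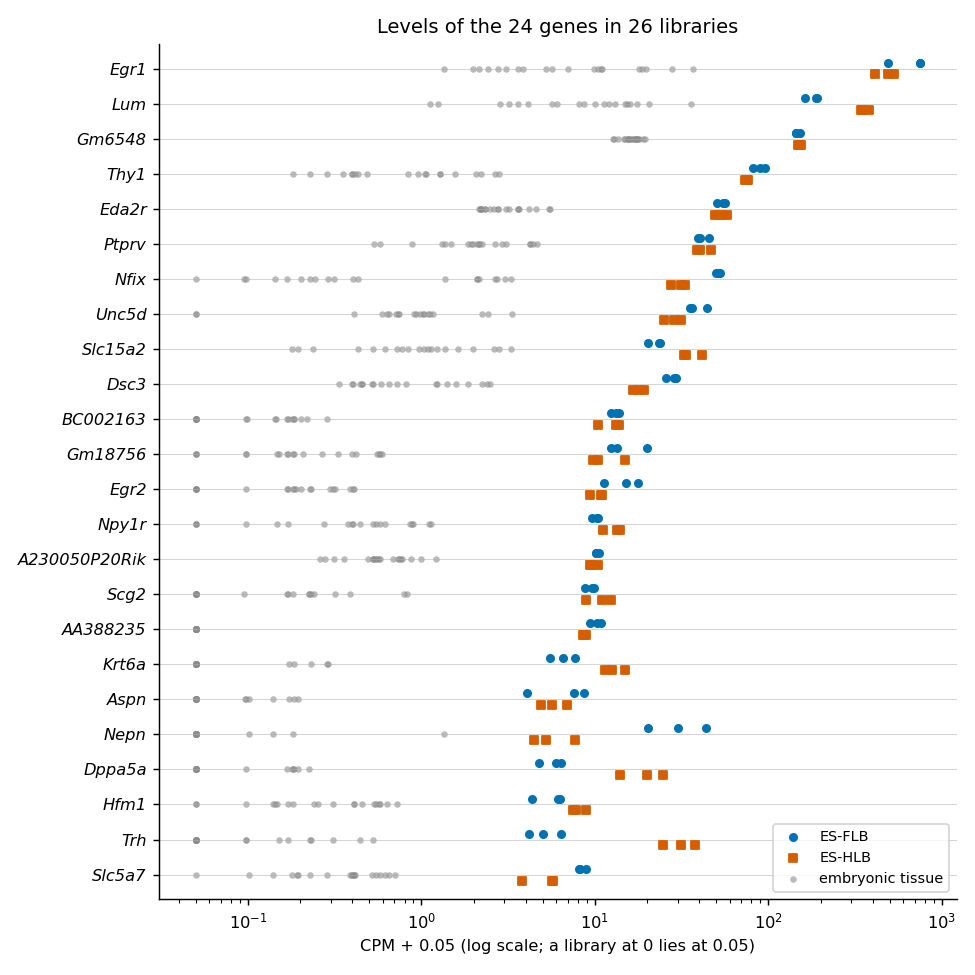
Levels of the 24 genes in 26 libraries, as CPM plus 0.05 on a log axis, with genes ordered by their lower ES-derived mean. Each point is 1 library of ES–FLB (circles), ES–HLB (squares) or embryonic tissue (grey). For all 24 genes the lowest ES-derived library lay above the highest embryonic one, a separation that the choice of the genes largely fixed.

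Some of the genes had clear levels in the embryo, while others were at or near 0 there. Every embryonic group mean was under 1 CPM for 14 genes, but 4 genes (Egr1, Lum, Gm6548 and Eda2r) had every embryonic mean at 1 CPM or more. Among embryonic groups the highest mean was in Ca for 10 genes, in E10.5 FLB for 5, in BA for 3, in early FLB and TB for 2 each, and in early HLB for 1. Several of these ranks rest on few reads. In Ca the means were 0.0883 CPM for Dppa5a, 0.128 for BC002163, 0.2965 for Egr2 and 0.350 for Scg2, where 3 reads were worth 0.36 to 0.404 CPM. The early HLB gene, Aspn, had a mean of 0.0655 CPM. The share of all genes with their highest mean in Ca is not given here. AA388235, listed at 0 in all 20 embryonic libraries, has no highest group. By annotation 19 of the genes are protein coding, 3 are transcribed pseudogenes, 1 is a processed pseudogene and 1 a long noncoding RNA. Summed over all 24, the level was 1282 to 1562 CPM in ES–FLB and 1353 to 1501 in ES–HLB, and 27.6 to 79.4 in the embryonic libraries. Much of the sum was Egr1, without which ES–FLB had 790 to 816 CPM and ES–HLB 939 to 972.

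Egr1 had the highest CPM of the 24. Its libraries read 752, 492 and 746 CPM in ES–FLB and 414, 490 and 529 in ES–HLB, against 1.30 to 36.9 (median 6.28) in the embryonic libraries. The highest embryonic library was replicate 1 of Ca, and Ca and BA were above the limb buds and TB in their means. Per kilobase of exon, the lower ES-derived mean was 126 CPM for Gm6548, 106 for Egr1, 73.9 for Lum, 39.0 for BC002163 and 25.1 for Thy1, and under 10 for the other 18 genes with a known length. Egr2, which works in hindbrain and Schwann cells and is also an immediate early gene, read 15.2, 11.2 and 17.8 CPM in ES–FLB and 9.27, 10.8 and 10.9 in ES–HLB. In embryonic libraries Egr2 was at 0 to 0.360 CPM (median 0.138), with 5 of 20 at 0.

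The 2 remaining Egr genes were also higher in both ES-derived groups than in any embryonic group, but were not chosen. Egr3 had means of 3.87 CPM in ES–FLB and 1.92 in ES–HLB, and at most 0.257 in an embryonic group, and missed both the minimum level and the fold limit (ratio 5.40). Egr4 had 2.59 and 1.70 CPM, and at most 0.0468, and missed the minimum level alone (ratio 11.6). In a list of 28 immediate early genes, chosen after levels were seen, 23 reached 5 CPM in both ES-derived groups. Their median ratio of the lower ES-derived mean to the highest embryonic mean plus 0.1 was 1.64, against 0.799 over all 10684 genes at that level. Fos (146 and 104 CPM, at most 14.8 in the embryo) stood just under the 8-fold limit at 6.98, Junb (160 and 78.1 CPM) reached 5.42, and Atf3 was higher in Ca than in either ES-derived group, at a ratio of 0.148. Dissociation and sorting, which the embryonic tissues did not undergo by the methods, cannot be told apart from the other differences for these genes.

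The promoter table (RefSeq, GRCm38.p6; 250 bases before to 50 after each start) matched 12 of the 24 genes. Egr1 was not among them. Egr2 and Nfix have several starts each, and so more windows that could hold a match. A CArG box, the element bound by serum response factor in immediate early promoters, was found in windows of 2 of these 12, Egr2 and Nfix, and in 1.81% of all 27025 genes of the table. Both strands were searched for this box and the others named here. The stretches below, read on the strand of the gene, are shown because they hold the box (capitals) of a gene family that stands out here, at 2 starts of Egr2 and 1 of Nfix. A match is a run of letters and not evidence of binding.
Egr2, chr10:67537719-67537868, plus strand, 150 bases before a start: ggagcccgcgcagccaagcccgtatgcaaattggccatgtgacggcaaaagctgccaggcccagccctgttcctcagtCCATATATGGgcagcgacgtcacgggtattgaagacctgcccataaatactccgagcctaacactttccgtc
Egr2, chr10:67537466-67537565, plus strand, 100 bases before another start: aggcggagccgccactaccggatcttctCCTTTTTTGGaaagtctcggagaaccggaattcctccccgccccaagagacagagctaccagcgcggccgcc
Nfix, chr8:84773091-84773125, minus strand, 35 bases far upstream of a start: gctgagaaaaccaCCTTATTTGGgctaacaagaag
The cyclic AMP element TGACGTCA was in 1 of the 12, Scg2, and in 2.03% of all genes. Among other elements searched, the SP1 box GGGCGG was in 7 of the 12 (38.2% of all genes). The AP-1 element was in 2 (8.97% of all genes) and a short glucocorticoid core in 1 (7.9%). The full glucocorticoid element and the EGR box were in 0. Taking the first listed window of each gene, 5 of the 12 (41.7%) had 5 or fewer CpG dinucleotides. Of genes with a window, that share was 43.6% of all and 4.97% of the 7747 at 5 CPM or more in both ES-derived groups.

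Nfix read 51.0, 49.9 and 52.4 CPM in ES–FLB and 27.3, 31.5 and 33.2 in ES–HLB. In the embryo it read 0.0933, 0.0452 and 0.0476 CPM in early FLB and 2.61, 2.03 and 3.25 in E10.5 FLB, and up to 2.998 in Ca. In hindlimb buds it read 0.381, 0.194 and 0.153 CPM in the early stage and 0.177 and 0 at E10.5. The later forelimb libraries lay above all other limb buds, the later hindlimb libraries did not lie above the early ones, and all were under the ES-derived libraries. Its 3 paralogs were abundant in the embryo as well and fell short of the limit. Nfib had 288 and 147 CPM in ES–FLB and ES–HLB and at most 66.1 in the embryo, Nfia 92.9 and 63.2 and at most 31.3, and Nfic 77.7 and 52.3 and at most 55.1. In each of the 3 the highest embryonic mean was in Ca.

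**Figure D2:**
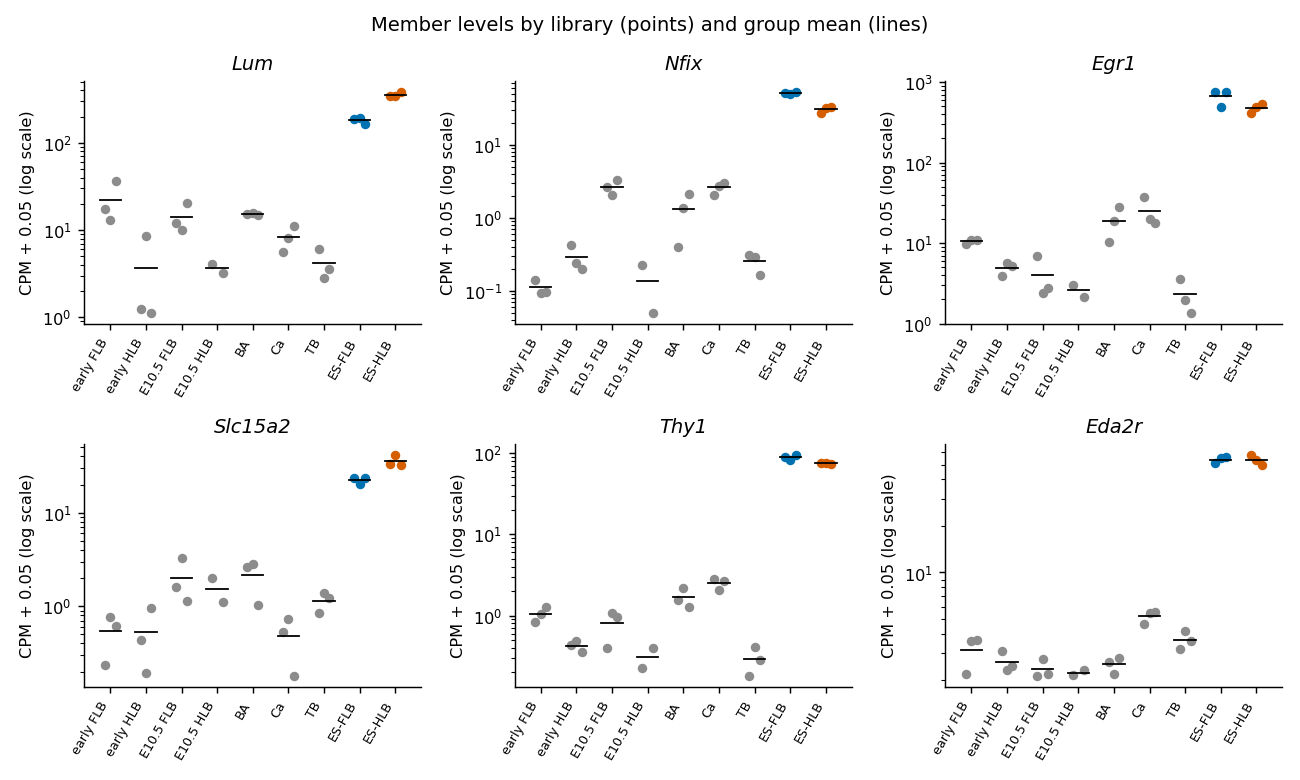
Levels of Lum, Nfix, Egr1, Slc15a2, Thy1 and Eda2r by group, as CPM plus 0.05 on a log axis. Points are libraries and lines are group means, with embryonic groups in grey and ES–FLB and ES–HLB in colour. Lum was lower in both hindlimb groups than in the forelimb groups of the embryo, but higher in ES–HLB than in ES–FLB.

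Among matrix genes, Lum (lumican) was far ahead of Nepn and Aspn per kilobase of exon, with lower ES-derived means of 73.9, 2.87 and 2.45 CPM. Lum read 189, 190 and 163 CPM in ES–FLB and 348, 342 and 382 in ES–HLB. In the embryo it reached 17.4, 13.1 and 36.0 CPM in early FLB, and 1.19, 8.59 and 1.07 in early HLB. Lum was thus far above the detection floor throughout the embryo, and passed the limit narrowly with a ratio of 8.13. Aspn (asporin) was at 7.51, 4.02 and 8.56 CPM in ES–FLB and 5.64, 6.85 and 4.82 in ES–HLB, and at most 0.146 in any embryonic library, with 13 of 20 at 0. Nepn (nephrocan), which is best known from endoderm, read 30.04, 20.2 and 43.5 CPM in ES–FLB and 4.43, 5.18 and 7.61 in ES–HLB. It was at 0 in 16 of the 20 embryonic libraries, and replicate 1 of early FLB alone had over 1 CPM, at 1.31. Endoderm markers summed to 87.2 to 108 CPM in ES–FLB and 70.8 to 92.4 in ES–HLB. They summed to 5.28 to 18.6 CPM in limb buds, 81.7 to 94.5 in TB and 43.7 to 1610 in Ca. The part of such cells in the level of Nepn was not tested.

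In a list of 18 small leucine-rich proteoglycans, chosen after values were seen, 6 reached 5 CPM in both ES-derived groups, and 5 of these had a ratio of 1 or more, with a median of 4.82, Lum, Aspn and Nepn included. Decorin (Dcn), which stands 47338 bases from Lum, had 66.1 and 92.0 CPM in ES–FLB and ES–HLB but also 43.8 in Ca. Keratocan (Kera), also within 100 kb of Lum, had 3.68 and 5.72 CPM and at most 0.766 in the embryo. Biglycan (Bgn) had 68.6 and 128 CPM and 89.4 in Ca. Fmod and Omd were higher in the embryo, with 41.0 CPM in TB for Fmod and 15.6 in early FLB for Omd, a neighbour of Aspn that was at 0 in ES–HLB. Of 44 connective tissue and tendon matrix genes, 24 reached 5 CPM in both ES-derived groups, with a median ratio of 1.16, and Lum and Aspn were the only ones chosen.

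A TATA box (TATAAA) lay directly before the start of Nepn, and in windows of 4 of the 12 matched genes (Eda2r, Aspn, Nepn and Slc5a7) against 15.7% of all genes. It is printed in capitals within the 60 bases before that start.
Nepn, chr10:52391548-52391607, plus strand: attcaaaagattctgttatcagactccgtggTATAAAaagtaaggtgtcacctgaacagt

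**Figure D3:**
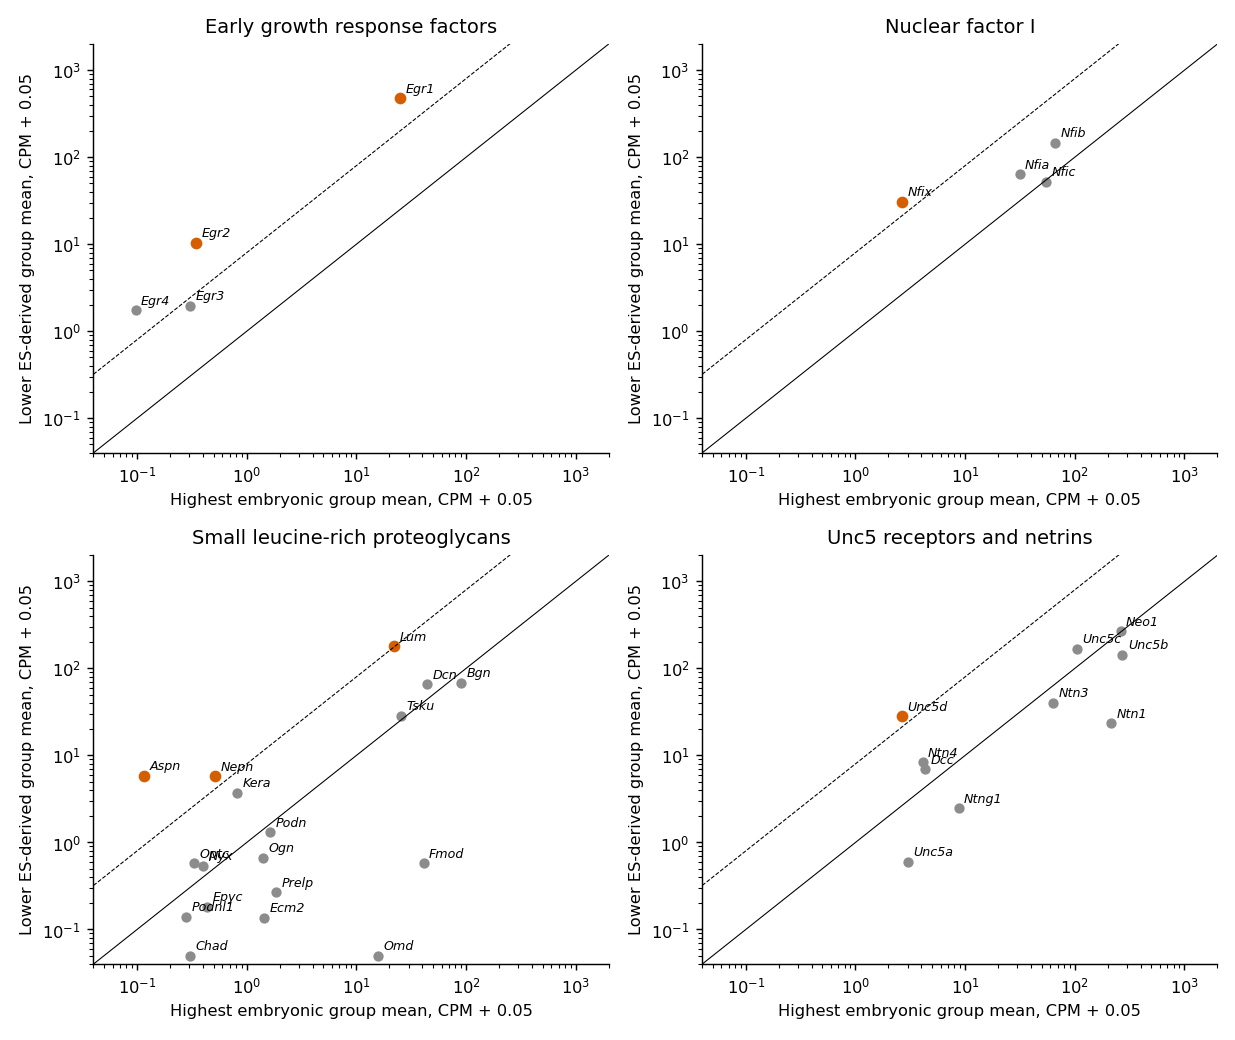
Chosen genes (orange) among their relatives (grey) in 4 gene families. The lower ES-derived group mean is plotted against the highest embryonic group mean, both as CPM plus 0.05 on log axes. The solid line marks equal levels and the dashed line an 8-fold difference. In the Nfi and Unc5 families 1 gene lies above the dashed line, and Egr4 lies above it at a level too low to be chosen.

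Eda2r, a receptor of the tumour necrosis factor family that binds ectodysplasin A2, read 50.8, 54.8 and 55.9 CPM in ES–FLB and 57.8, 53.6 and 49.5 in ES–HLB, and 2.09 to 5.47 in the embryo (median 2.72). Ptprv, a phosphatase-like gene annotated as a transcribed pseudogene in the mouse, read 39.4, 45.8 and 40.3 CPM in ES–FLB and 46.6, 40.5 and 38.8 in ES–HLB, against 0.483 to 4.57 in the embryo. For both, Ca had the highest embryonic mean, 5.14 CPM for Eda2r and 4.31 for Ptprv. In a list of 28 p53 targets, chosen after values were seen, 25 reached 5 CPM in both ES-derived groups, with a median ratio of 1.45. Zmat3 had 158 and 176 CPM and at most 38.7 in the embryo, Cdkn1a 50.4 and 70.1 and at most 20.53, while Mdm2 had 83.9 and 85.3 and at most 63.5.

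Thy1 (CD90) had a level per kilobase above those of the other surface proteins among the 24. Its libraries read 88.9, 82.1 and 95.1 CPM in ES–FLB and 76.2, 75.6 and 73.2 in ES–HLB, and 0.131 to 2.76 in the embryo, lowest in TB and highest in Ca. In a list of stromal surface genes, chosen after values were seen, 10 of 12 reached 5 CPM in both ES-derived groups, with a median ratio of 0.579. A ratio of 1 or more was found for Thy1 at 29.3, Pdgfrb at 1.53 and Pdgfra at 1.27. Endoglin (Eng) had 5.83 and 8.99 CPM in ES–FLB and ES–HLB and 178 in Ca, and Nt5e (CD73) had 2.15 and 2.07 and 8.21 in Ca. Unc5d, a receptor through which netrins repel growing axons, read 36.5, 44.4 and 35.4 CPM in ES–FLB and 25.1, 28.6 and 31.2 in ES–HLB, and at most 3.28 in the embryo, in TB. Unc5c was already at 105 CPM in BA and had 244 and 169 in ES–FLB and ES–HLB, and Ntn1, the netrin, had 29.3 and 23.4 CPM and 215 in TB.

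Dsc3, a cadherin of desmosomes, read 28.5, 25.5 and 29.4 CPM in ES–FLB and 16.5, 17.8 and 19.04 in ES–HLB, and at most 2.44 in the embryo. Krt6a, a keratin of stressed or proliferating epidermis, read 5.44, 7.63 and 6.49 CPM in ES–FLB and 14.8, 11.4 and 12.4 in ES–HLB. It was at 0 in 15 of the 20 embryonic libraries and reached 0.239 CPM, in BA. General epithelial markers did not separate in this way. Summed over 19 markers they stood at 184 to 268 CPM in ES–FLB, 350 to 380 in ES–HLB, 139 to 227 in Ca and 405 to 624 in the other embryonic libraries. Krt6b, 97.0% identical to Krt6a over 1193 bases, had 0.931 and 1.43 CPM in ES–FLB and ES–HLB and 0 in all embryonic groups, so part of the signal of either gene may be shared.

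The peptide genes were low but nearly confined to the ES-derived libraries. Trh, the precursor of thyrotropin-releasing hormone, read 4.14, 4.99 and 6.36 CPM in ES–FLB and 24.6, 37.7 and 31.4 in ES–HLB. It was at 0 in 11 embryonic libraries and at most 0.474, in TB. Scg2, a secretogranin of peptide granules, read 8.68, 9.84 and 9.60 CPM in ES–FLB and 8.87, 12.3 and 10.9 in ES–HLB, and up to 0.782 in the embryo. The cyclic AMP element found in its window is printed in capitals, with 30 bases in all.
Scg2, chr1:79440076-79440105, minus strand: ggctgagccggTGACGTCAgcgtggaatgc
Npy1r, a receptor of neuropeptide Y, had 10.1 ± 0.412 CPM in ES–FLB and 12.7 ± 1.49 in ES–HLB (SD, n = 3 each), with at most 1.08 in the embryo. Its ligand gene Npy had means of 0.314 and 0.555 CPM there. Penk, the enkephalin precursor, had 69.1 and 40.4 CPM but 6.83 in BA, which put it under the limit at 5.82.

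Of the transporters, Slc15a2, which takes up small peptides, read 23.4, 20.2 and 23.6 CPM in ES–FLB and 33.3, 41.5 and 32.6 in ES–HLB. In the embryo it ranged from 0.130 CPM in Ca to 3.22 in E10.5 FLB. Slc5a7, the choline transporter of cholinergic neurons, had 8.34 ± 0.408 CPM in ES–FLB and 5.03 ± 1.10 in ES–HLB (SD, n = 3 each), and at most 0.653 in the embryo. It stood just inside both the fold limit and the minimum level. A230050P20Rik, which RefSeq calls Shfl, an interferon-induced inhibitor of viral translation, had 10.3 ± 0.248 and 9.72 ± 0.537 CPM (SD, n = 3 each) and at most 1.17 in the embryo. It shares 265 exonic bases with Angptl6 on the other strand, and the strand setting of the counting is not given in the sources used here.

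Dppa5a, an RNA-binding protein of undifferentiated ES cells, read 5.96, 4.71 and 6.36 CPM in ES–FLB and 14.0, 24.5 and 19.9 in ES–HLB, and at most 0.174 in the embryo. Its transcript is 95.9% identical to that of Pigp over 417 bases (67.4% of its length), so reads could be counted for either, and Pigp had 34.5 and 33.7 CPM in ES–FLB and ES–HLB and at most 26.4 in the embryo. Hfm1, a helicase of meiotic crossing over, read 6.21, 6.10 and 4.28 CPM in ES–FLB and 7.39, 8.83 and 7.74 in ES–HLB, and at most 0.677 in the embryo. Of 28 pluripotency genes 6 reached 5 CPM in both ES-derived groups, and Dppa5a was the only one chosen. Pou5f1 (Oct4) missed the minimum level at 4.38 CPM in ES–FLB but had 18.1 in ES–HLB, and at most 0.322 in the embryo. Sox2, by contrast, had 9.47 and 24.7 CPM and 64.3 in TB. Of the germline and two-cell list, 1 of 42 genes reached the level in both ES-derived groups and 0 were chosen.

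Several listed genes cannot be assigned with confidence, because reads of a near-identical copy could be counted for either. BC002163, a processed pseudogene, is 99.4% identical over all its 319 bases to Ndufs5, a subunit of respiratory complex I. BC002163 read 10.4 to 13.7 CPM in the ES-derived libraries and at most 0.237 in the embryonic ones, while Ndufs5 was at most 0.000189 CPM in the ES-derived libraries and reached 21.8 in Ca. The sum of the pair was 10.4 to 13.7 CPM in the ES-derived libraries, 6.28 to 16.9 in early HLB, 4.92 to 11.9 in TB and 0.102 to 0.137 in early FLB. It was 0.00167 to 0.173 CPM in E10.5 FLB, 0.00617 to 0.00837 in E10.5 HLB and 0.00204 to 0.16 in BA. Among replicates of Ca it ran from 0.129 to 22 CPM. The cause of such uneven sums was not tested. With the pair summed, the ratio used to choose the genes was 1.05 in place of 54.5, with Ca as the highest embryonic group. By that ratio the apparent restriction of BC002163 did not hold for the pair, but the uneven sums leave the level of either gene uncertain.

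Gm6548, a transcribed pseudogene, is 96.7% identical over 1166 bases to Eef1a1, the translation elongation factor. It read 144 to 155 CPM in the ES-derived libraries and 12.6 to 19.4 in the embryo, and made up 1.72 to 1.88% of the pair in ES-derived and 0.133 to 0.215% in embryonic libraries. With the pair summed the ratio was 0.836. Gm18756, a pseudogene of Nlrp5, shares 1757 exonic bases with Vmn1r90 on the same strand. It had 15.3 ± 4.19 and 11.7 ± 2.81 CPM in ES–FLB and ES–HLB (SD, n = 3 each) against at most 0.541 in the embryo. The sum of Gm18756 and Vmn1r90 was 9.74 to 21 CPM in ES-derived libraries and at most 0.541 in embryonic ones, so the separation held for that pair. AA388235, a noncoding RNA on chr17:33981492-33985358, read 9.32, 10.8 and 10.2 CPM in ES–FLB and 8.46, 8.83 and 8.63 in ES–HLB. Against the pooled embryonic floor of 0.0132 CPM (3 reads in 20 libraries), its lower ES-derived mean was at least 654-fold higher. That bound is for the pool and not for each tissue, since the E10.5 limb buds alone had a pooled floor of 0.105 CPM. No transcript sequence was found for AA388235, so near copies of it were not searched. Floors cover counting error only.

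Genome neighbours were looked at next. Of 114 other genes within 100 kb of the 24, 63 reached 5 CPM in both ES-derived groups. Of these 63, 0 were among the chosen, where 24 of all 10684 genes at that level were. Their median ratio was 0.900, against 0.799 over all genes at that level, and 39.7% had a ratio of 1 or more, against 27.9%. Mcam, a neighbour of Thy1, had a ratio of 0.0647, and Ier2, an immediate early gene near Nfix, had 3.73. Below 5 CPM, Krt6b near Krt6a had 9.31 and Kera near Lum 4.24. Of 30 glucocorticoid response genes, 18 reached 5 CPM in both ES-derived groups, with a median ratio of 0.834 and 7 at a ratio of 1 or more.

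The genes just inside and just outside the fold limit differed little. The ratio was 8.08 for Gm6548, 8.11 for Slc5a7, 8.13 for Lum, 8.92 for Hfm1 and 9.26 for Dsc3. Outside were Col6a3 at 7.97 (also barred by its symbol), Gm10406 at 7.96, Meg3 and Parp3 at 7.52 each, and Shisa7 at 7.08. Below the minimum level, Zfp345 (4.97 CPM), Spink3 (4.77), AU022751 (4.65), C920006O11Rik (4.56) and Pou5f1 met the fold limit.

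ES–HLB was compared with ES–FLB to ask whether the retinoic acid treatments, which set limb type in culture, went with different levels of these genes. This difference was not used to choose them. All 24 passed the filter, and with limma 6 were higher in ES–HLB, 7 were lower, and 11 were not called at an adjusted p of 0.05. That is 54.2% of the genes, where 25.1% of all 13132 genes tested were called (13.1% higher and 12% lower). The 2 sets differ in level, since the 24 had to reach 5 CPM in both groups and the others 1 CPM in 3 libraries. The share called among all genes at 5 CPM in both groups is not given here. The median absolute log2 fold change was 0.44 for the 24 genes and 0.12 for all genes tested. With all libraries in one model, 3 genes were higher (Trh, Dppa5a and Krt6a) and 2 lower (Nfix and Nepn). The share of all genes called in that model is not given here. It is thus not shown whether the 24 still stood above all genes there.

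The genes that rose in ES–HLB were Trh, Dppa5a, Lum, Krt6a, Slc15a2 and Hfm1. Trh rose 5.59-fold (log2 fold change 2.48, SE 0.15, adjusted p = 5.7e-13 by limma), and its ES–HLB libraries lay well above those of ES–FLB. Dppa5a rose 3.18-fold (log2 1.67, SE 0.16, adjusted p = 6.2e-09), Lum 1.99-fold (log2 0.99, SE 0.06, adjusted p = 1.9e-11) and Krt6a 1.92-fold (log2 0.94, SE 0.15, adjusted p = 1.4e-05). Slc15a2 rose 1.59-fold (adjusted p = 2.9e-06). Hfm1 rose 1.42-fold (adjusted p = 0.0243), a call lost without ES–FLB replicate 3 (adjusted p = 0.175), ES–HLB replicate 2 (0.10) or ES–HLB replicate 3 (0.0532).

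Nepn had the largest fall, 4.92-fold (log2 fold change −2.30, SE 0.34, adjusted p = 0.00701 by limma), with no overlap of libraries but a wide spread in both groups, and without ES–HLB replicate 2 the adjusted p was 0.0521. Nfix fell 1.65-fold (log2 −0.72, SE 0.08, adjusted p = 2.0e-08), Slc5a7 1.61-fold (adjusted p = 0.00279), Dsc3 1.54-fold (adjusted p = 1.2e-05) and Unc5d 1.35-fold (adjusted p = 0.000609). Egr2 fell 1.38-fold (adjusted p = 0.0157), a call lost without ES–FLB replicate 1 (0.0659) or 3 (0.164) or ES–HLB replicate 1 (0.0779). Thy1 fell 1.17-fold (adjusted p = 0.00554), and without ES–FLB replicate 3 its adjusted p was 0.0691. Egr1 was not called (log2 −0.45, SE 0.22, adjusted p = 0.257), but without ES–FLB replicate 2, its lowest library there, it was (log2 −0.65, adjusted p = 0.0253). Of the other genes not called, Gm18756 was called without ES–HLB replicate 1 (adjusted p = 0.02) and Npy1r without ES–HLB replicate 3 (0.0397). Eda2r and Ptprv were almost level, with log2 fold changes of 0.00 (SE 0.07) and 0.01 (SE 0.08).

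**Figure D4:**
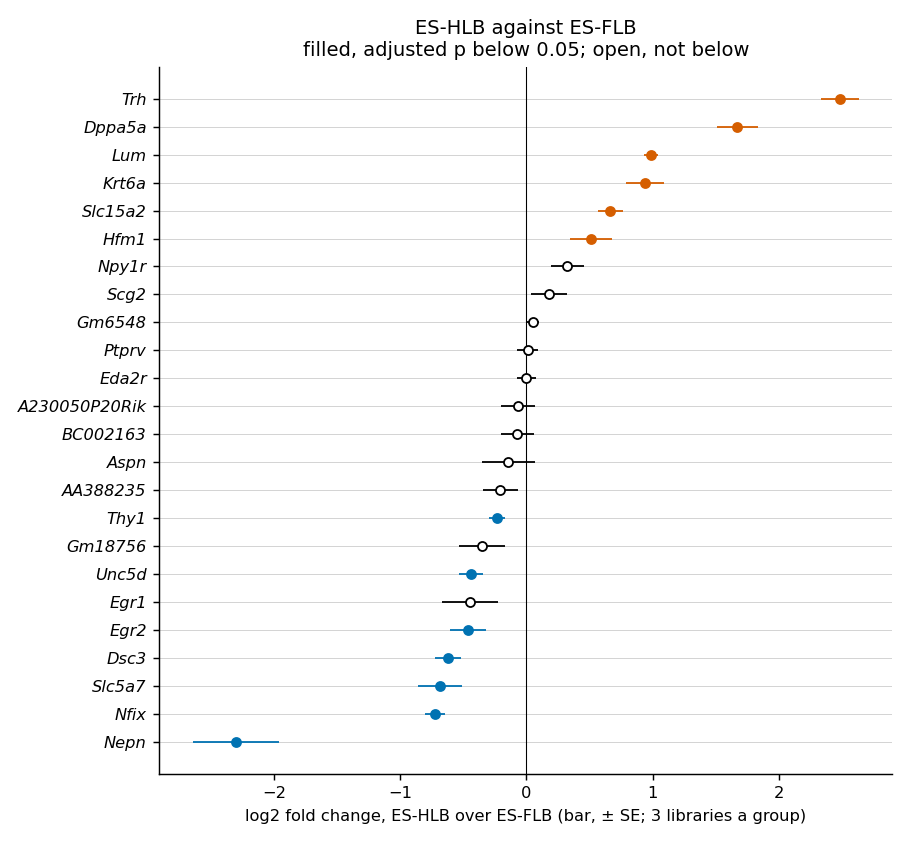
Log2 fold change of ES–HLB over ES–FLB for the 24 genes with its standard error, from 3 libraries a group. Filled points passed an adjusted p of 0.05 and open points did not. Trh and Dppa5a lie at the top with 2.48 and 1.67, and Nepn at the bottom with −2.30.

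Relatives of some of these genes were also tested, in lists that include the chosen genes themselves. For comparison, 13.1% of all 13132 genes tested were called higher in ES–HLB and 12% lower. All 4 nuclear factor I genes fell in ES–HLB, Nfib by 0.96 on the log2 scale (adjusted p = 0.000173 by limma) and Nfia by 0.54 (adjusted p = 2.7e-08). Of 9 tested Unc5 receptors and netrins, 7 fell and 0 rose, Dcc by 1.11 on the log2 scale (adjusted p = 6.3e-08). Of 26 immediate early genes 10 fell and 2 rose, with Junb lower by 1.01 on the log2 scale (adjusted p = 0.0325), and 14 were not called, Fos among them. Of 10 desmosome genes 4 rose, Pkp2 by 1.46 on the log2 scale, and 2 fell, Dsc3 and Dsg2, the latter by 0.63. Matrix genes were divided, with 15 of 34 higher and 9 lower. All of these lists but the last were chosen after levels were seen.

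Pluripotency genes moved with Dppa5a. Of 27 tested, Dppa5a included, 23 rose in ES–HLB and 2 fell, with a median log2 fold change of 1.43 (all genes 0.01). Of all genes tested, 13.1% were called higher and 12% lower. The filter asked for 1 CPM in 3 of the libraries compared. A gene that passed it only through ES–HLB was bound to rise, and the number of such genes is not given here. In this list 6 genes reached 5 CPM in both ES-derived groups. Tdgf1 rose by 2.52 on the log2 scale (adjusted p = 5.7e-11 by limma), Tdh by 2.37 (adjusted p = 3.4e-12) and Pou5f1 by 1.94 (adjusted p = 1.6e-05), while Klf4 and Tbx3, the latter also a factor of limb mesenchyme, fell. The summed level of the list, 334 to 341 CPM in ES–FLB and 310 to 392 in ES–HLB, did not separate the groups. With Krt6a, 11 of 18 epithelial markers rose and 0 fell, among them Krt5 and Krt14, which rose by 0.86 and 1.27 on the log2 scale. Blood and macrophage markers summed to 11.5 to 13.9 CPM in ES–FLB and 103 to 186 in ES–HLB. The part of such cells in the differences between ES–HLB and ES–FLB was not tested.

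**Figure D5:**
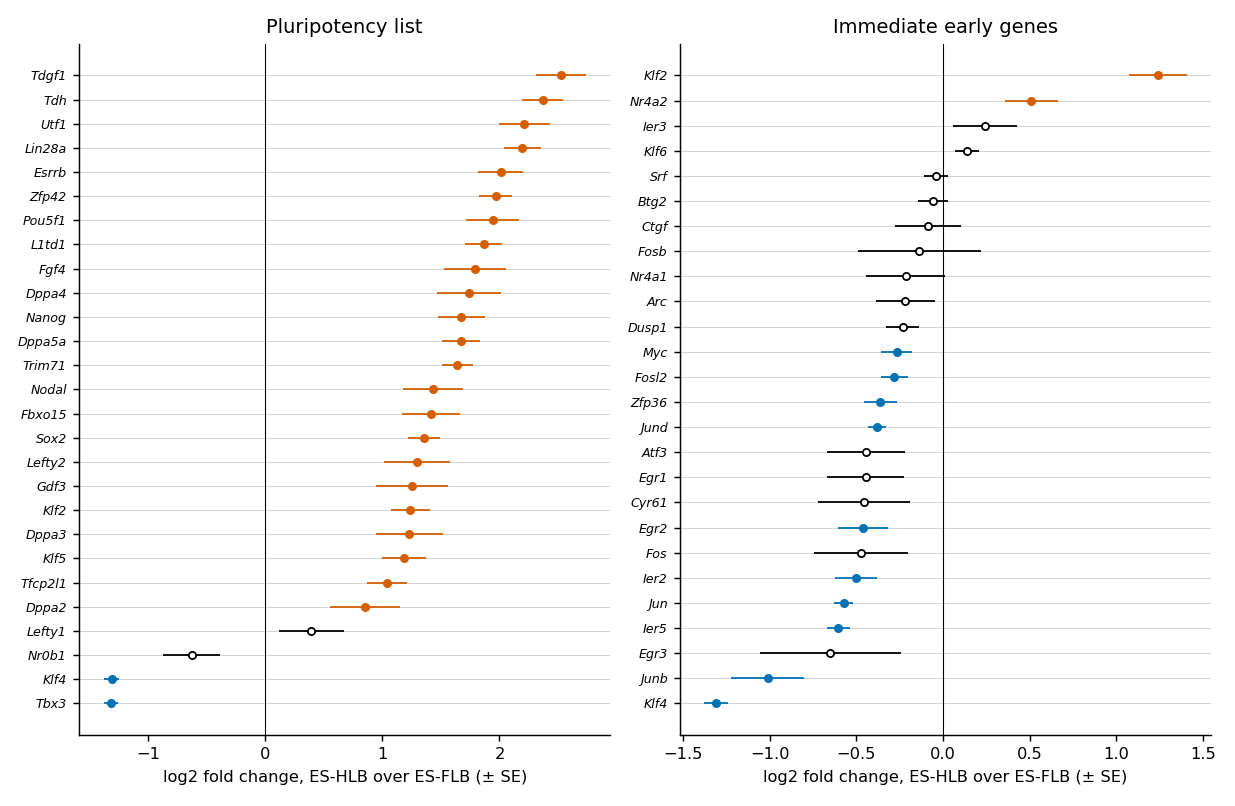
Log2 fold change of ES–HLB over ES–FLB with its standard error for the genes of the pluripotency list (left) and of the immediate early list (right). Filled points passed an adjusted p of 0.05. Of 27 pluripotency genes 23 lie at the right with filled points, and of 26 immediate early genes 10 lie at the left with filled points.

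In the embryo most of the genes were too low to test. E10.5 FLB was set against early FLB to ask how they changed as the limb bud grew. The early limb bud libraries had 19642197 to 22142168 reads and those of E10.5 had 5543752 to 5908846. Stage and library depth thus cannot be told apart, here or in the hindlimb. The filter was passed by 7 genes. Of these 2 were higher and 2 lower, where 64.8% of all genes were called (30.2% higher and 34.6% lower). Nfix was higher 5.34-fold (log2 fold change 2.42, SE 0.26, adjusted p = 3.3e-07 by limma) and Slc15a2 2.24-fold (log2 1.16, SE 0.33, adjusted p = 0.00541), but both passed the filter only through E10.5 FLB, so they were bound to differ, and with any E10.5 FLB replicate left out they could not be tested. Egr1 fell 2.99-fold (log2 −1.58, SE 0.36, adjusted p = 0.00755), from 9.80, 10.8 and 10.9 CPM to 6.97, 2.37 and 2.71. Gm6548 fell 1.22-fold (adjusted p = 0.0338), a call lost without E10.5 FLB replicate 1 or 3 or any early FLB replicate (0.0590 to 0.143).

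For E10.5 HLB against early HLB, 5 genes passed the filter, and Egr1 alone was called, where 28.9% of all genes were (12% higher and 16.9% lower). It fell 1.83-fold (log2 −0.87, SE 0.23, adjusted p = 0.0173 by limma), from 3.81, 5.58 and 5.19 CPM to 3.01 and 2.09. The call was lost without E10.5 HLB replicate 3 (adjusted p = 0.136), early HLB replicate 2 (0.0542) or early HLB replicate 3 (0.0671), and with all libraries in one model (0.143). Lum was not called, but without early HLB replicate 2 it was higher (log2 1.29, adjusted p = 0.00539).

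Ca was set against E10.5 FLB to see where in the embryo these genes were found. Of 8 tested, 5 were higher in Ca and 1 lower, where 75.5% of all genes were called (37.2% higher and 38.3% lower). Egr1 was 6.36-fold higher (log2 fold change 2.67, SE 0.51, adjusted p = 0.00588 by limma), Thy1 2.58-fold (adjusted p = 0.000598), Eda2r 2.16-fold (adjusted p = 0.000216), Ptprv 1.54-fold (adjusted p = 0.0401) and Gm6548 1.37-fold (adjusted p = 0.00584). Slc15a2 was 2.45-fold lower (adjusted p = 0.00454). Thy1 passed the filter only through Ca and Slc15a2 only through E10.5 FLB, so both were bound to differ in the direction found. The call of Ptprv was lost without any one Ca replicate or without E10.5 FLB replicate 2 or 3 (adjusted p = 0.0579 to 0.209). Blood and macrophage markers summed to at least 23287 CPM in Ca and to 2950 to 4150 in E10.5 FLB, and endothelial markers to 1190 to 1220 against 457 to 471, and their part in these differences was not tested.

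After the levels were seen, early HLB was also compared with early FLB, to set the limb types of the embryo beside those of the culture. The labels give both the same stage, but a figure legend of the study gives early HLB a later one, so limb type and stage cannot be told apart here. Of 5 genes tested Egr1 was called, and was 2.15-fold lower in early HLB (log2 fold change −1.10, SE 0.15, adjusted p = 0.000495 by limma), where 20.3% of all genes were called (9.35% higher and 11% lower). Lum was 7.48-fold lower but not called (log2 −2.90, SE 0.91, adjusted p = 0.104), since early HLB replicate 2 had 8.59 CPM and the others 1.19 and 1.07. Without replicate 2 it was called (log2 −3.74, adjusted p = 0.00934). With all libraries in one model Lum was called (adjusted p = 0.000441) and Egr1 was not (adjusted p = 0.0565). The difference between hindlimb and forelimb was then compared between culture and embryo in one model of 12 libraries. Lum was the only one of 5 genes called, with a difference of 3.89 on the log2 scale (SE 0.93, adjusted p = 0.0181), where 22.4% of all genes were called (12.7% higher and 9.73% lower).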

How the data were processed

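RNA-seq of sorted ES–LB mesenchyme and embryonic tissues was analysed. According to the labels and methods, the authors made TruSeq Stranded mRNA libraries, checked reads with FastQC 0.11.5, mapped them with HISAT2 2.0.4 to mm10, counted per gene with Cuffdiff and used edgeR 3.16.2. The deposited values are CPM, which the authors scaled to a total of 1000000 per library. Depth was estimated from the spacing of the lowest CPM values.

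Group means of deposited CPM chose the genes, and levels in the text are deposited CPM. For tests, libraries were scaled by a trimmed mean of log ratios (30% of ratios and 5% of intensities trimmed), genes had to reach 1 CPM in 3 of the libraries compared, and log2(CPM + 0.5) was fitted with limma 3.58.1 (trend, robust) in R 4.3.3. Fold changes are on that scale and understate changes of low genes. Benjamini-Hochberg adjustment covered every gene tested. On simulated data for ES–HLB against ES–FLB, 194 of 200 changed genes were recovered (94 of 100 at 2-fold) with 9 false calls among 13202 genes. For E10.5 HLB against early HLB, 197 were recovered with 21 false calls among 12420 genes. The simulation gave every gene the same small spread, narrower than that of Nepn and Egr1 in ES–FLB. It does not show how the test performs on genes that vary as much as these.

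Genes, lists and named genes were chosen with earlier results of these data known. All chosen genes are named, with list genes where a result turned on them and the 5 nearest each limit. Of the lists, 11 families were added after values were seen. Positions and near copies (BLAST+ 2.17.0, at least 90% identity over 80 bases) are from RefSeq and GENCODE on GRCm38. Alternatives covered the rule, scaling, filter, pseudocount, replicate block, one model and each replicate left out.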

Additional observations from a re-analysis of the deposited data

Results flagged for a closer look

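Lum was the only one of the 24 genes whose hindlimb against forelimb difference was called as differing between culture and embryo, by the interaction term of one limma model over the ES-derived and early limb bud libraries (5 of the 24 genes tested). The difference was 3.89 on the log2 scale (SE 0.93, adjusted p = 0.0181). In culture Lum was higher in ES–HLB, and all 3 of its libraries were above those of ES–FLB. In the embryo all 3 early HLB libraries (1.07 to 8.59 CPM) were below those of early FLB (13.1 to 36.0 CPM). The labels give both the same stage, but a figure legend of the study does not, so limb type and stage cannot be told apart in the embryo. With the replicate number as a block the difference was the same, with an adjusted p of 0.0921.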

How the results depend on the processing

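The number of chosen genes depended on the limits. It was 69 with a fold limit of 4 and 10 with 16, 37 with a minimum of 2 CPM and 14 with 10 CPM, and 22 to 25 with any ES-derived replicate left out. Trimmed-mean scaling kept 20 and lost Lum, Gm6548, Slc5a7 and Trh, an offset of 0.5 CPM kept 16, and with replicate 2 of E10.5 HLB kept in, Gm10406 joined all 24. For ES–HLB against ES–FLB, one model of all libraries gave 3 higher and 2 lower, and an adjusted p of 0.001 gave 3 lower and 1439 genes in all. Leaving out a replicate gave 5 to 6 higher, 5 to 8 lower and 2620 to 2795 genes in all. For E10.5 FLB against early FLB, CPM without scaling gave 1 lower, no filter 5 higher and 1 lower, a filter of 3 CPM 0 higher, and a p of 0.001 gave 1 higher, 0 lower and 5301 in all. Leaving out a replicate gave 0 to 2 higher, 1 to 2 lower and 7539 to 7671 in all. For E10.5 HLB against early HLB, the block gave 1 higher, and a p of 0.001 gave 0 lower and 571 in all. Leaving out a replicate gave 0 to 1 higher, 0 to 1 lower and 1691 to 4188 in all, the fewest without E10.5 HLB replicate 3, when 1 library is assumed to vary like the others, with 1807 without replicate 1 and 2118 without early HLB replicate 3. For Ca against E10.5 FLB, no filter gave 2 lower, a filter of 3 CPM 0, the block 2, and a p of 0.001 gave 2 higher and 0 lower. Leaving out a replicate gave 3 to 5 higher, 0 to 2 lower and 8968 to 9328 in all. For early HLB against early FLB, no filter gave 3 lower, a p of 0.001 gave 386 in all, and leaving out a replicate gave 0 higher, 1 to 2 lower and 1376 to 2278 in all, with 1376 without early FLB replicate 1, 1664 without early FLB replicate 3 and 1556 without early HLB replicate 3. For the difference between culture and embryo, no filter gave 6 higher and 2 lower, the block 0 higher, and a p of 0.001 gave 0 higher and 814 in all, and leaving out a replicate gave 1 to 2 higher, 0 lower and 2232 to 2663 in all. Filters change which genes are tested, and for the other settings the cause was not tested.

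Signs turned for genes that were not called, given here as log2 fold changes. In ES–HLB against ES–FLB, Eda2r had −0.007 without scaling and −0.060 to 0.056 with a replicate left out, Ptprv −0.071 to 0.076, BC002163 −0.148 to 0.047, and Aspn −0.447 to 0.054. Ptprv had −0.015 to 0.531 in E10.5 FLB against early FLB. Nfix in Ca against E10.5 FLB had −0.020 without scaling and −0.061 to 0.213 with a replicate left out. Gm6548 in early HLB against early FLB had 0.040 without scaling and −0.047 to 0.046 with a replicate left out.

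Same-numbered replicates of ES–FLB and ES–HLB correlated at 0.0420 to 0.0683 in their deviations. Such low values do not show whether they shared an experiment. With the number as a block, ES–HLB against ES–FLB had 6 higher and 8 lower genes and 3893 in all, the added lower gene being Gm18756 (limma, adjusted p = 0.0182). Tests on whole reads with edgeR and DESeq2 were not run. By the estimated depth 84.1 to 92.5% of values in the early limb buds and 98.6 to 98.9% elsewhere lay within 0.02 reads of a whole number, and the others were fractional. Genes under about 0.5 CPM in the embryo rest on few reads.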
